A study of Mus musculus with 42 samples.

Results

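The core cardiac transcription factors described here are 10 DNA-binding proteins of the early heart, namely the homeodomain factor *Nkx2-5*, the zinc finger factors *Gata4*, *Gata5* and *Gata6*, the basic helix-loop-helix factors *Hand1* and *Hand2*, the MADS box factor *Mef2c* and the T-box factors *Tbx5*, *Tbx20* and *Tbx2*. They were chosen by name and found by mapping the Ensembl identifiers of the count table to GENCODE symbols, which gave 10 members among 56953 genes. RNA sequencing covered paired left and right sides of the heart field of 21 mouse embryos at stage E8.5i, when the heart tube is looping, so that there were 42 libraries. The groups compared were 5 wild types (Ccdc40+/+), 11 homozygous mutants (Ccdc40lnks/lnks) with rightward looping, which is the normal direction, and 5 homozygous mutants with inverted looping. The gene *Ccdc40* encodes a protein that motile cilia need to beat, and the mutant line was kept on a C56Bl6J background, as the methods spell it. All groups held both sexes, with 4 males and 1 female in wild types, 6 and 5 in mutants with rightward looping and 3 and 2 in mutants with inverted looping. The heart tube, head and back had been cut away, as had the trunk below the second somite, so that tissue level with the foremost somites was kept, and the rest was split at the midline. Each side is therefore a mixture of tissues in which fewer cells of a type and less RNA per cell cannot be told apart. The study sorted the mutants with rightward looping further, into situs solitus, the normal arrangement, and heterotaxy, a discordant one, by clustering asymmetric expression. The labels do not give these classes, so each value for mutants with rightward looping covers a mixture of both, and the classes were not analysed here.

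These factors work together in most steps of heart formation. *Nkx2-5* and the GATA factors mark cardiac progenitors and bind next to each other at many heart genes, *Mef2c* switches on muscle genes in progenitors of the second heart field, and *Tbx5* marks the inflow region and the future left ventricle. *Tbx20* acts in chamber muscle, *Tbx2* represses chamber genes in the atrioventricular canal, *Hand1* is known from the left ventricle and extraembryonic mesoderm, and *Hand2* from the second heart field and right ventricle. Looping turns the straight heart tube into a helix, and mutants in which cilia do not beat can loop to either side.

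Upstream sequence was read for all 10 members, as 200 bases before the start of the canonical transcript in GENCODE, genome build GRCm39. It is shown for *Gata5*, *Tbx5* and *Tbx20*, members that passed the test of right against left described below and whose stretch holds no annotated exon of their own. The stretches of *Nkx2-5* and *Mef2c* overlap exons of their other transcripts and are not shown. The *Gata5* stretch is at chr2:179976510-179976709 on the minus strand, that of *Tbx5* at chr5:119972528-119972727 on the plus strand and that of *Tbx20* at chr9:24685600-24685799 on the minus strand. Capitals mark a match to CANNTG, the letters bound by basic helix-loop-helix factors.

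Gata5: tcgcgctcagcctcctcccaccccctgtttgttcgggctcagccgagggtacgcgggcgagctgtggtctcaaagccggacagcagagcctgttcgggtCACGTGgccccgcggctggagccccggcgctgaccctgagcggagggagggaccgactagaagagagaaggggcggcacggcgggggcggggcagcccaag

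Tbx5: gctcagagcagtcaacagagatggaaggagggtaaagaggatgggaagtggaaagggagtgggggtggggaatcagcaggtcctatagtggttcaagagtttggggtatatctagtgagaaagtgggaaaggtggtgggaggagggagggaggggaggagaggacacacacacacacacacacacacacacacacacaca

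Tbx20: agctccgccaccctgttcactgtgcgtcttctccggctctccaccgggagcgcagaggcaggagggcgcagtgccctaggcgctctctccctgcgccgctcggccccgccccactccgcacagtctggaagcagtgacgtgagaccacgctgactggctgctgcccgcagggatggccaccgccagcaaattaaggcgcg

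Each stretch runs 5′ to 3′ on the strand of its gene. Only *Gata5* of these 3 holds CANNTG, read as CACGTG at 101 to 96 bases upstream, and the stretch of *Tbx5* ends in a run of CA repeats. Both strands were searched for 4 motifs, each counted on its own whether or not it overlapped another. The letters AGATAA of GATA factors were found upstream of 2 of 10 members, *Gata4* and *Hand2*, against 7.26% of 21664 protein-coding genes. Neither GGTGTGA of T-box factors nor TNAAGTG of NK homeodomain factors was found upstream of any member, and these were found upstream of 2.58% and 7.84% of all genes. CANNTG was found upstream of 4 members, *Nkx2-5*, *Gata4*, *Gata5* and *Tbx2*, against 56.1% of all genes. GC content of the members' stretches ranged from 41% in *Mef2c* to 73.5% in *Tbx2*, with a median of 54.5% that was also the median of all genes.

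Total counts per library ranged from 36073684 to 62970327, with a median of 43458644. *Ccdc40* had 15.2 to 26.5 CPM (counts scaled by library size and composition) in the 10 libraries of wild types, 8.83 to 14.6 in the 22 libraries of mutants with rightward looping and 9.99 to 14.8 in the 10 libraries of mutants with inverted looping, so that genotypes did not overlap. The second heart field marker *Isl1* had a median of 90.7 CPM and was above 0 in every library. The summed level of 11 neural tube genes was 63.6 to 250.7 CPM over all libraries, with *Msi1* at 43.6 to 88.8 CPM, *Pax6* at 3.23 to 113 CPM and *Olig2* at 0 in 12 libraries.

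All 10 members were detected in all libraries, at very different levels. Per kilobase of the canonical transcript (RPKM, mean over 42 libraries), *Nkx2-5* was first with 62.5, followed by *Hand1* with 38.3, *Gata4* with 26.8, *Mef2c* with 22.1, *Gata5* with 17.9, *Tbx5* with 16.6 and *Tbx20* with 12.7. *Gata6* with 4.54, *Hand2* with 2.60 and *Tbx2* with 1.27 RPKM formed the low end. Neighbours in this order often traded places. On the left of wild types *Nkx2-5* (58.1 ± 22.7 RPKM, SD, n = 5) was above *Hand1* (54.5 ± 14.8) in 3 of 5 libraries, *Gata4* was above *Mef2c* in 3 of 5, and *Gata5* was above *Tbx5* in 3 of 5, whereas *Gata6*, *Hand2* and *Tbx2* kept their order in 5 of 5. *Mef2c* moved to the rank of 7 if the length of all its exons (17132 bases) took the place of its canonical transcript (7125 bases). Members also differed in how far they ranged. *Tbx5* went from 0.352 to 110.7 CPM and *Hand1* from 1.56 to 134.5 CPM across the 42 libraries, whereas *Mef2c* went from 76.2 to 247.4 CPM. The lowest library of each member was the right side of embryo 2_2, a mutant with rightward looping, for 7 members, and the right side of embryo 10_1, a wild type, for *Nkx2-5*, *Mef2c* and *Tbx2*.

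**Figure D1:**
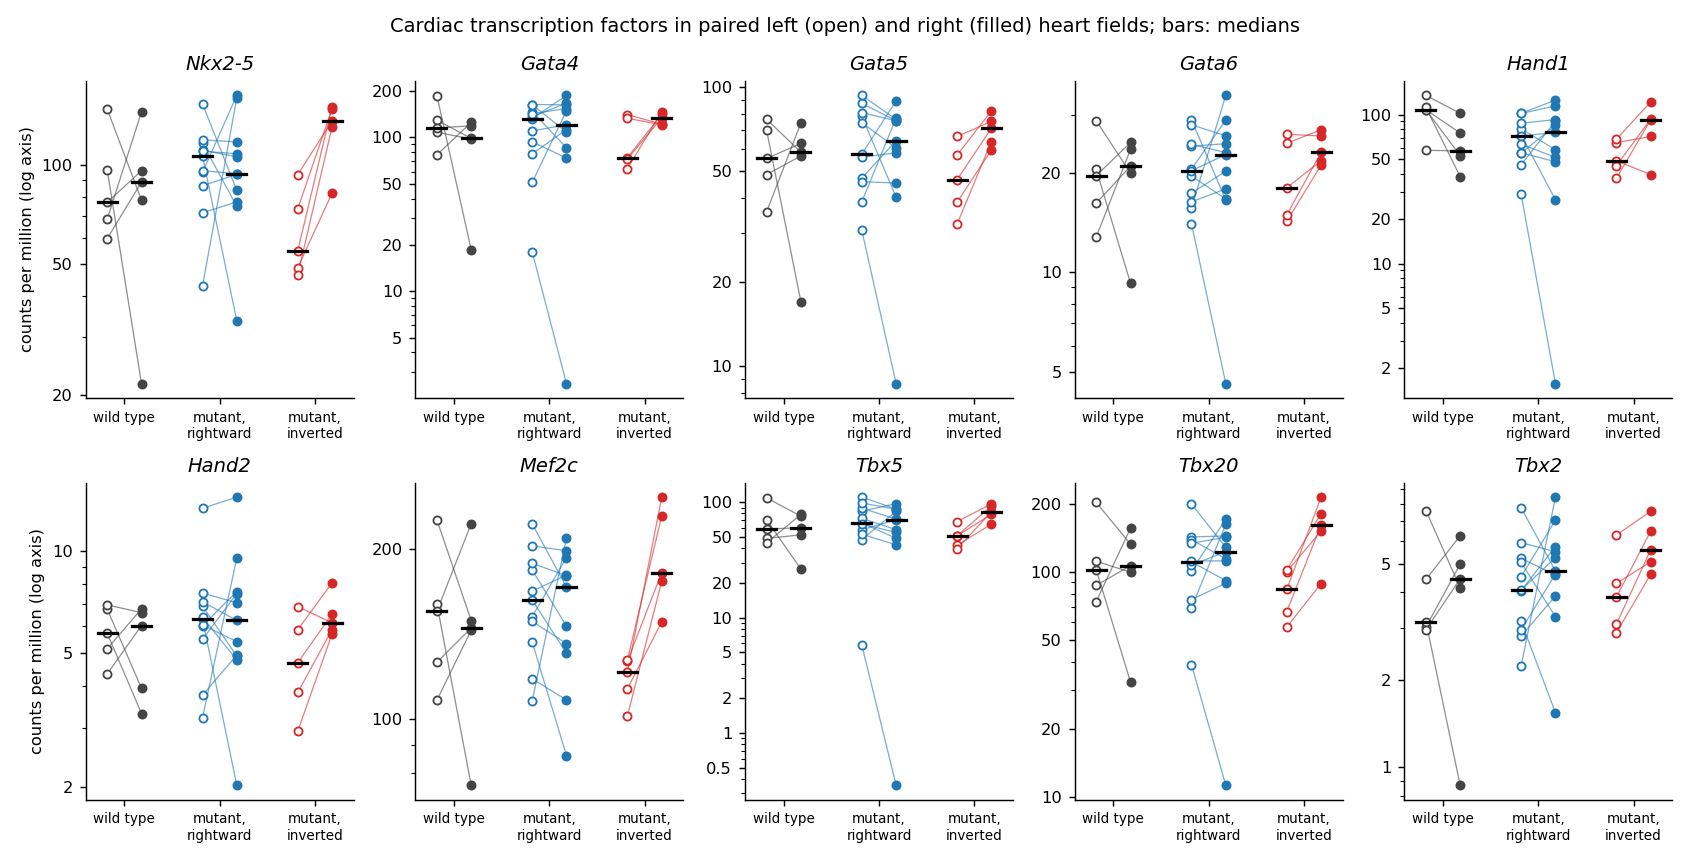
CPM on a log axis of each member in the left (open) and right (filled) side of each embryo, with lines joining both sides of an embryo and black bars for medians, in 5 wild types, 11 mutants with rightward looping and 5 mutants with inverted looping. In mutants with inverted looping, all 5 lines rise from left to right for *Nkx2-5*, *Gata5*, *Mef2c*, *Tbx5*, *Tbx20* and *Tbx2*, and single embryos with very low right sides stand apart in the other groups.

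The question asked of right against left is whether the members differ between sides of the heart field in each group. A group without a call is not thereby shown to be symmetric. In mutants with inverted looping, 5 of 10 members were higher on the right by edgeR's quasi-likelihood test with the embryo as a block and an adjusted p under 0.05. These were *Nkx2-5*, *Gata5*, *Mef2c*, *Tbx5* and *Tbx20*, by 1.51-fold to 2.09-fold, and no member was lower on the right. Over all genes tested, 2.04% of 22960 were called in this comparison, and 1.72% were called higher on the right. The median log2 fold change was 0.60 over the members and -0.005 over all genes.

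*Nkx2-5* changed most of these. In embryos 2_7, 4_6, 10_3, 18_2 and 32_2 it had 73.7, 93.7, 48.7, 55.0 and 46.3 CPM on the left, against 149, 136, 82.3, 151 and 131 CPM on the right. The right side was higher in each of the 5 embryos, and only the right side of embryo 10_3 fell within the range of the left sides. The log2 fold change of right over left was 1.06 (SE 0.14, adjusted p = 0.0111).

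*Tbx20*, a factor of chamber muscle, had 100, 102, 57.0, 83.7 and 66.7 CPM on the left and 152, 182, 88.8, 215 and 162 CPM on the right of these embryos. It was again higher on the right in all 5, with overlap of sides through embryo 10_3 alone. The log2 fold change was 0.95 (SE 0.12, adjusted p = 0.00948).

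*Tbx5* had 51.2, 67.9, 42.4, 51.1 and 39.5 CPM on the left and 78.5, 96.8, 64.6, 92.6 and 82.6 CPM on the right, in the same order of embryos. All 5 right sides were higher than their own left side, with a log2 fold change of 0.74 (SE 0.085, adjusted p = 0.00702).

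*Mef2c* had 127, 127, 113, 121 and 101 CPM on the left and 182, 229, 149, 247 and 176 CPM on the right. It was the member with no overlap at all, as every right library was above every left library, which was the case for 1.79% of 26335 genes. The log2 fold change was 0.73 (SE 0.087, adjusted p = 0.00759).

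*Gata5*, a GATA factor of endocardial and precardiac cells, had 46.5, 66.4, 38.6, 56.9 and 32.2 CPM on the left and 71.1, 75.1, 59.4, 82.0 and 63.7 CPM on the right. Its log2 fold change of 0.59 (SE 0.10, adjusted p = 0.0292) was past the threshold in the full group but in 1 of 5 fits that left out an embryo, with adjusted p from 0.0259 to 0.0881. An antisense transcript, *Gata5os*, shares 258 bases of *Gata5* exons, and without strand in the counting their reads cannot be told apart.

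The other 5 members did not pass the adjusted threshold, although all had a log2 fold change above 0 and an unadjusted p under 0.05, as did 3468 of 22960 genes in either direction. *Tbx2*, the repressor of the atrioventricular canal, was higher on the right in 5 of 5 embryos, from 2.90 to 6.28 CPM on the left and from 4.604 to 7.57 CPM on the right, with a log2 fold change of 0.56 (SE 0.14, adjusted p = 0.0949). Right above left in every embryo with inverted looping was seen for 6 members and for 7.35% of 26335 genes. *Hand1* had a log2 fold change of 0.62 (SE 0.22, adjusted p = 0.226), *Gata4* of 0.55 (SE 0.22, adjusted p = 0.280), *Hand2* of 0.48 (SE 0.17, adjusted p = 0.217) and *Gata6* of 0.32 (SE 0.11, adjusted p = 0.206). *Gata4* had 2 embryos against the rest, with 133 CPM on the left and 121 on the right of embryo 18_2 and 141 and 122 in embryo 4_6. *Hand1* had 49.0 CPM on the left and 39.5 on the right of embryo 4_6, the one embryo in which it was lower on the right.

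By the exact sign-flip test over 5 embryos (two-sided), *Nkx2-5*, *Gata5*, *Mef2c*, *Tbx5*, *Tbx20* and *Tbx2* each had p = 0.0625, the smallest that 5 embryos allow. With the 3 males alone, none of the members passed the adjusted threshold, and the log2 fold changes of the 5 called members were 0.44 to 0.95.

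In wild types no member passed, as did 0% of 23182 genes tested by edgeR, where 639 genes had an unadjusted p under 0.05. All 10 members had log2 fold changes below 0, from -0.01 in *Gata6* to -0.70 in *Hand1*, with wide errors. *Hand1* stood apart with the left side higher in 5 of 5 wild types. Its levels in embryos 7_1, 8_1, 10_1, 17_7 and 22_4 were 108, 108, 112, 135 and 57.6 CPM on the left and 53.1, 75.2, 38.3, 102 and 57.0 CPM on the right. The difference in embryo 22_4 was close to nil and that in embryo 10_1 was the widest. The log2 fold change was -0.70 (SE 0.20, unadjusted p = 0.00862, adjusted p = 1.00), and the exact sign-flip test gave p = 0.0625. Of tissues of the embryo, foregut endoderm genes lay to the left in wild types, with 2 of 13 above 0 (median -0.29). Atrioventricular canal genes did too, with 2 of 11 (median -0.15), while paraxial mesoderm genes lay to the right, with 10 of 10 (median 0.68). Genes of tissues outside the embryo proper also lay to the left, and no gene of any of these lists was called. Of 9 tested genes of amnion and extraembryonic mesoderm, *Hand1* included, 1 had a log2 fold change above 0 (median -0.40), and of 10 of visceral endoderm 0 did (median -1.24). The summed level of either list was higher on the right in 1 of 5 wild types. Visceral endoderm genes summed to 245 to 1262 CPM on the left and 83.0 to 938 on the right, and those of amnion and extraembryonic mesoderm without *Hand1* to 421 to 720 and 305 to 580. Their part in the values of *Hand1* was not tested. A lncRNA on the other strand, *Gm32915*, shares 36.8% of the exon length of *Hand1*, so that its reads cannot be told apart from those of *Hand1* without strand. The direction of the other 9 members in wild types rested on embryo 10_1. Without it *Hand1* was at -0.49 (SE 0.14) and the other 9 were above 0, up to 0.26 for *Gata5* (SE 0.20) and *Gata6* (SE 0.21) and 0.27 for *Nkx2-5* (SE 0.29), with no member called.

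In mutants with rightward looping no member passed, beside 0.0263% of 22795 genes. Log2 fold changes of right over left lay between -0.25 (SE 0.31) in *Hand1* and 0.16 (SE 0.22) in *Tbx2*, and 9 of 10 were below 0. *Mef2c*, with the smallest error, had -0.06 (SE 0.11). In this group *Nkx2-5* had 42.9 to 154 CPM on the left (median 107) and 33.6 to 163 CPM on the right (median 94.2), *Tbx5* 5.77 to 110.7 on the left (median 66.0) and 0.352 to 97.3 on the right (median 70.7), and *Tbx20* 38.7 to 201 on the left (median 111) and 11.3 to 171 on the right (median 123). Left and right overlapped throughout. Without embryos 2_2 and 19_4, which stood apart, log2 fold changes lay between -0.13 (SE 0.11) in *Tbx5* and 0.10 (SE 0.16) in *Tbx2*.

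**Figure D2:**
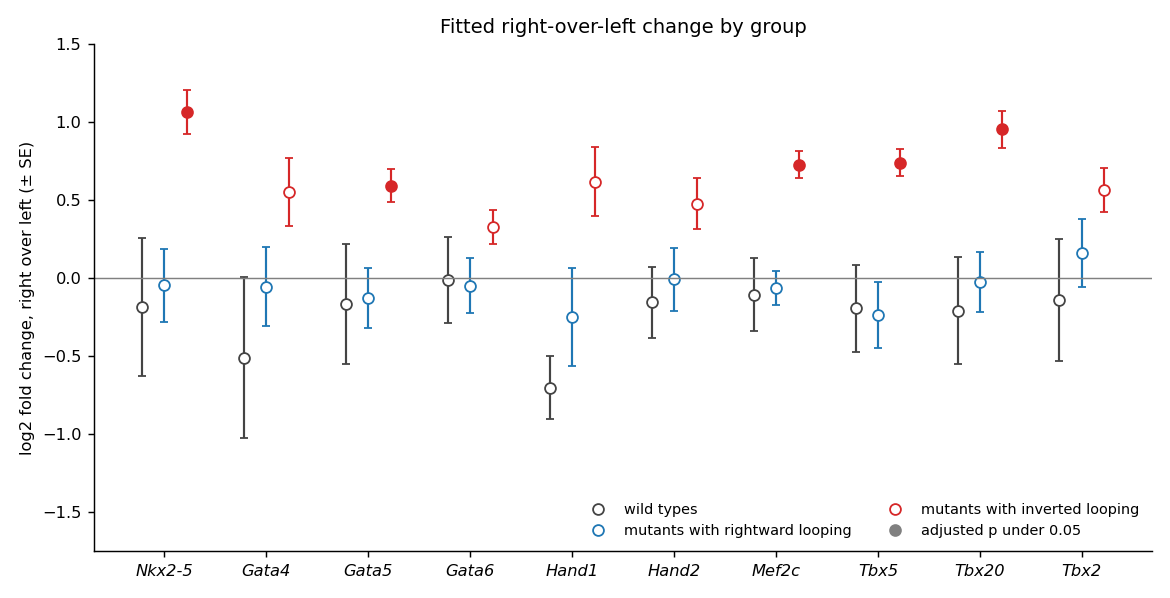
Log2 fold change of right over left of each member, fitted by edgeR in 5 wild types, 11 mutants with rightward looping and 5 mutants with inverted looping, with bars for 1 SE and filled points for an adjusted p under 0.05. The 5 filled points, from 0.59 to 1.06, all belong to mutants with inverted looping, and wild types have their lowest point at -0.70 for *Hand1*.

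A call in one group and none in another does not show that groups differ, and this was tested with an interaction of side and group in all 42 libraries. Right over left was higher in mutants with inverted looping than in those with rightward looping by 0.36 (*Gata6*) to 1.10 (*Nkx2-5*) on the log2 scale, but no member passed the adjusted threshold, beside 0.311% of 26335 genes. *Mef2c* had a difference of 0.78 (SE 0.23, adjusted p = 0.169), *Tbx5* of 0.98 (SE 0.37, adjusted p = 0.321), *Tbx20* of 0.96 (SE 0.37, adjusted p = 0.327) and *Nkx2-5* of 1.10 (SE 0.45, adjusted p = 0.378). Against wild types the differences ran from 0.32 in *Gata6* to 1.30 in *Hand1*, and again no member passed, beside 0.513% of genes. Mutants with rightward looping and wild types differed by -0.06 to 0.45, with no member and 0% of genes called and 800 genes at an unadjusted p under 0.05.

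Single members were also compared between groups by an exact permutation of embryos (two-sided), 10 members in each of 3 pairs of groups and with no adjustment. The mean log2 ratio of *Mef2c* was 0.72 with inverted looping and -0.06 with rightward looping (exact p = 0.00298). *Tbx20* gave exact p = 0.0165 for the same pair, *Nkx2-5* gave 0.0259 and *Tbx5* 0.0309. *Hand1* had the lowest of the comparisons with wild types, with a mean log2 ratio of 0.60 against -0.70 (exact p = 0.0159). The embryos of both groups overlapped in each of these comparisons.

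On either side taken alone, no member passed the adjusted threshold between groups. In the left heart field, mutants with rightward looping were compared with wild types (0.0242% of 24838 genes called) and mutants with inverted looping with those with rightward looping (0.0121% called). In the right heart field the same comparisons called 0.0121% and 0.00805% of 24859 genes. In mutants with inverted looping, all 10 members were lower on the left than in mutants with rightward looping, with log2 fold changes of -0.65 to -0.07, and 9 of 10 were higher on the right, by up to 0.50. On the left the log2 fold changes were -0.65 (SE 0.24, adjusted p = 0.501) for *Nkx2-5* and -0.44 (SE 0.15, adjusted p = 0.464) for *Mef2c*, and on the right 0.50 (SE 0.36, adjusted p = 1.00) for *Tbx20*. *Hand1* on the left had a log2 fold change of -0.59 in mutants with rightward looping over wild types (SE 0.23, adjusted p = 0.978). Its levels there were 57.6 to 135 CPM in wild types (median 108) and 29.2 to 102 CPM in mutants with rightward looping (median 71.9), with overlap. The exact permutation was also run on log2 CPM of each side, for 10 members in each of these comparisons and with no adjustment. On the left, inverted against rightward looping gave exact p = 0.0135 for *Mef2c* and 0.0215 for *Nkx2-5*. Rightward looping against wild types gave exact p = 0.0458 for *Hand1* on the left, and all others were above 0.05.

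The members were split between sides in 3 of 5 wild types, 8 of 11 mutants with rightward looping and 2 of 5 mutants with inverted looping, and lay on 1 side in the others. All 10 were higher on the left in embryos 8_1 and 10_1 (wild types) and 2_2 and 17_1 (mutants with rightward looping), and all 10 were higher on the right in embryo 19_4 (mutant with rightward looping) and in embryos 2_7, 10_3 and 32_2 (mutants with inverted looping). The median log2 ratio over the members was -1.72 in embryo 2_2, -1.60 in embryo 10_1 and 1.18 in embryo 19_4, the 3 widest of the 21 embryos, and 0.22 to 0.96 in mutants with inverted looping. In embryo 2_2 *Tbx5* had 5.77 CPM on the left and 0.352 on the right, from 16 counts, *Hand1* had 29.2 and 1.56, and *Gata4* had 18.1 and 2.51, while *Mef2c* kept 137 and 86.1 CPM. In embryo 19_4 *Nkx2-5* rose from 42.9 CPM on the left to 160 on the right, and *Hand2* from 3.21 to 9.57.

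After the mean of each group was removed, log2 ratios of 45 of 45 pairs of members had a Pearson correlation above 0 over 21 embryos, with a median of 0.829. The highest was 0.959 between *Gata5* and *Gata6* and the lowest 0.382 between *Hand1* and *Mef2c*, and *Hand1* had the lowest median with the other members (0.670). Without embryos 10_1, 2_2 and 19_4 the median was 0.646 over 18 embryos, 44 of 45 pairs were above 0, and *Hand1* with *Mef2c* was at -0.19. These points share the dissection and the library of each side, so that the values are given as a description.

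**Figure D3:**
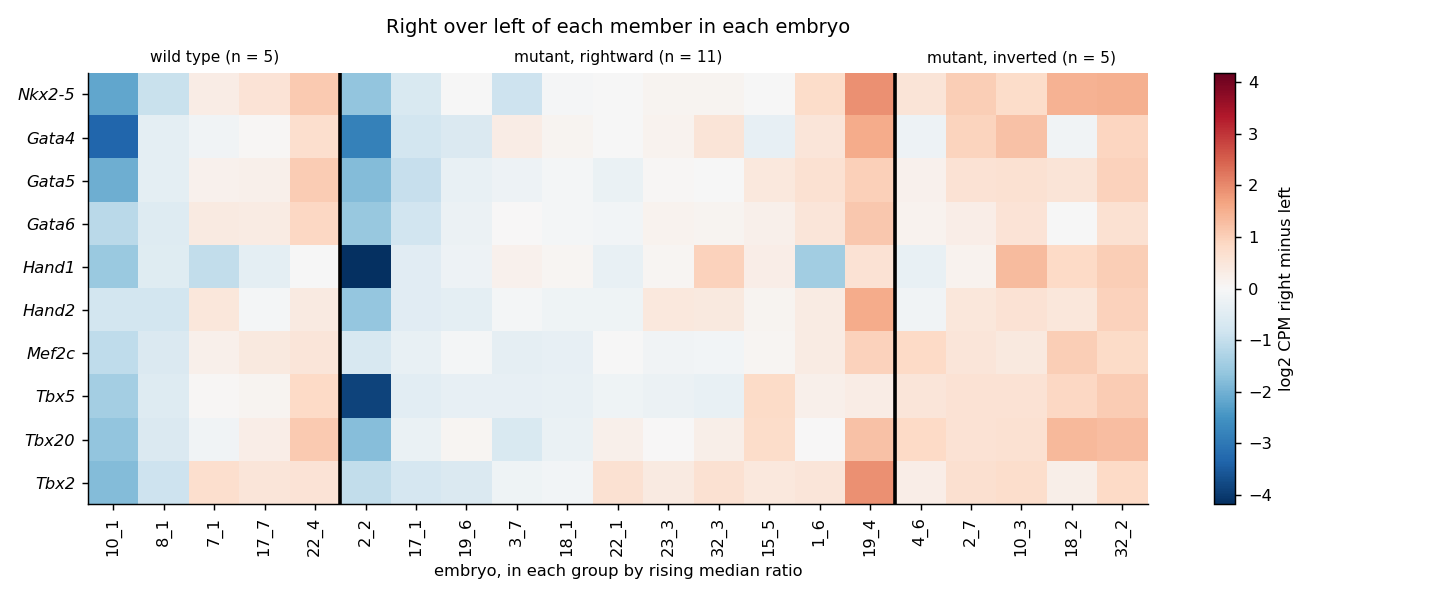
Log2 ratio of right over left (log2 CPM, prior count of 2) of each member (rows) in each of 21 embryos (columns), sorted within the 3 groups by the median ratio, with red for higher on the right and blue for higher on the left. Embryos 10_1 and 2_2 (median -1.60 and -1.72) and 19_4 (median 1.18) have columns of 1 colour, both colours are seen in 3 wild types, in 8 mutants whose looping was rightward and in 2 whose looping was inverted, and mutants with inverted looping are mostly red.

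The comparisons were repeated without these 3 embryos, a choice made after seeing the data and from the members' own ratios. In this fit 4 members differed between mutants with inverted and rightward looping, beside 1.56% of 26509 genes. These were *Mef2c* by 0.84 (SE 0.15, adjusted p = 0.00736), *Tbx5* by 0.87 (SE 0.20, adjusted p = 0.0271), *Nkx2-5* by 1.14 (SE 0.28, adjusted p = 0.0406) and *Tbx20* by 0.95 (SE 0.23, adjusted p = 0.0460). As embryos were taken out for their extreme values of these very genes, this is a description of the remaining 18 embryos and no independent test.

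Genes of differentiated heart muscle moved with the members. Of 28 heart muscle genes, mostly of sarcomeres and calcium handling but also natriuretic peptides, the secreted ligand *Bmp10* and the mitochondrial subunit *Cox6a2*, 22 were higher on the right in mutants with inverted looping and none was lower, with a median log2 fold change of 1.10. *Myl2*, a ventricular myosin light chain, changed by 2.88 (SE 0.47), *Actn2*, which anchors actin in the Z disc, by 1.78 (SE 0.16) and the skeletal actin *Acta1* by 1.70 (SE 0.25). Their summed level was 2319 to 4305 CPM on the left and 4156 to 8465 CPM on the right of mutants with inverted looping. The log2 ratio of this sum was above 0 in all 5 of these embryos (0.63 to 1.33), in 3 of 5 wild types (-1.49 to 0.94) and in 6 of 11 mutants with rightward looping (-1.27 to 1.24). It was -1.49 in embryo 10_1, -1.27 in embryo 2_2 and 1.24 in embryo 19_4, the widest ratios of their own groups, while embryo 32_2 with inverted looping had 1.33, the widest but for embryo 10_1. The part of muscle cells left in a side in the result on the members was not tested.

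Over 21 embryos with group means removed, Pearson correlation with this sum was 0.960 for *Tbx20*, 0.953 for *Mef2c* and 0.952 for *Nkx2-5*, and 0.569 for *Hand1*. Without embryos 10_1 and 2_2, the farthest out, it was 0.926, 0.947, 0.913 and 0.190, so that the value of *Hand1* rested on them. Embryo 19_4, whose muscle ratio was 1.24, was kept in this repeat, and the correlations were not repeated without it. Spearman's rho over all 21 embryos was 0.916, 0.939, 0.883 and 0.345.

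Set against the muscle sum, the members of mutants with inverted looping formed a continuous series, with spreads that overlapped and no test of the differences between members. The log2 ratio of *Nkx2-5* minus that of the sum was 0.06 ± 0.34 (SD, n = 5) and that of *Tbx20* was -0.05 ± 0.15, with *Tbx20* below the sum in 4 of 5 embryos. *Tbx5* (-0.26 ± 0.18), *Mef2c* (-0.28 ± 0.20), *Gata5* (-0.41 ± 0.33), *Hand2* (-0.53 ± 0.42) and *Gata6* (-0.68 ± 0.38) were below it in 5 of 5 embryos. *Hand1* (-0.39 ± 0.64) and *Tbx2* (-0.44 ± 0.41) were below it in 4 of 5 embryos and *Gata4* (-0.46 ± 0.81) in 3 of 5.

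**Figure D4:**
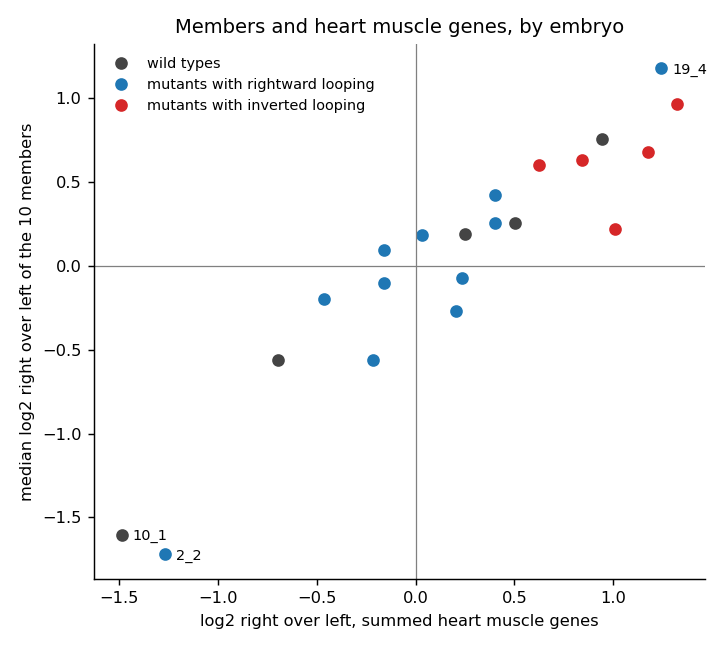
Median log2 ratio of right over left over the 10 members against the log2 ratio of 28 summed heart muscle genes, with 1 point for each of 21 embryos coloured by group and the 3 embryos that stand apart named. Points lie along a rising line from embryos 10_1 and 2_2 at the lower left to embryo 19_4 at the upper right, with all 5 mutants with inverted looping to the right of 0.

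Other tissues also differed between sides of mutants with inverted looping. Neural tube genes were lower on the right for 3 of 11 tested, *Pax6* by -2.02 (SE 0.36), *Olig2* by -1.77 (SE 0.35) and *Nkx6-1* by -1.45 (SE 0.28), and their summed level was 113 to 174 CPM on the left and 76.6 to 140 on the right. Of 10 genes of paraxial mesoderm, which forms somites, *Myf5* was lower on the right by -2.44 (SE 0.45), and their sum was 203 to 353 CPM on the left and 142 to 205 on the right. Both sums were lower on the right in 5 of 5 embryos. Of 14 genes of endothelium and endocardium, *Nfatc1* was higher on the right by 0.54 (SE 0.10), of 13 of foregut endoderm *Hhex* by 1.04 (SE 0.19), and of 9 of amnion and extraembryonic mesoderm, a list that also holds the member *Hand1*, *Bmp4* by 0.84 (SE 0.13). No gene of blood (11), visceral endoderm (10) or neural crest (9) passed. Log2 fold changes were above 0 for 10 of 10 visceral endoderm genes (median 0.55), although their sum was higher on the right in 3 of 5 embryos. They were above 0 for 8 of 9 genes of amnion and extraembryonic mesoderm (median 0.54). For blood this held for 0 of 11 (median -0.29) and for neural crest for 3 of 9 (median -0.13). The part of these tissues in the result on the members was not tested.

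Of 35 partners of these factors tested in mutants with inverted looping, 3 were higher on the right and none was lower, beside 1.72% of all genes called higher on the right, and their median was 0.07. Those called included *Smyd1*, a muscle methyltransferase, by 1.43 (SE 0.13, adjusted p = 0.00365) and *Myocd*, the coactivator of serum response factor, by 0.80 (SE 0.13, adjusted p = 0.0211). The summed level of the 36 partners was higher on the right in 5 of 5 of these embryos, with log2 ratios of 0.09 to 0.48 (median 0.47). Of 11 genes of the atrioventricular canal, where *Tbx2* acts, 4 were higher on the right, with *Bmp2* by 1.17 (SE 0.12), *Rspo3* by 1.01 (SE 0.15) and *Tgfb2* by 0.54 (SE 0.071). Of 14 genes of the venous pole and proepicardium, where *Tbx5* acts, 4 were higher on the right, with *Shox2* by 1.09 (SE 0.19), the pacemaker channel *Hcn4* by 0.76 (SE 0.080) and *Osr1* by 0.60 (SE 0.096). In wild types none of these 3 lists had a call, but 0% of all genes had one there, so that this does not set the lists apart. In mutants with rightward looping, 1 of 34 partners tested was called lower on the right, beside 0.0263% of all genes. No gene of the other lists was called in that group.

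The genes most like each called member were sought among 10949 protein-coding genes with at least 200 counts on average, by the correlation of log2 ratios over 21 embryos with group means removed. For *Nkx2-5* these were *Cap2* (0.972), *Nexn* (0.964) and *Tpm1* (0.964), for *Tbx20* they were *Popdc2* (0.979), *Tnnt2* (0.977) and *Mybpc3* (0.972), and for *Mef2c* they were *Tpm1* (0.976), *Slc8a1* (0.959) and *Mylk3* (0.951). Most of these encode proteins of muscle filaments, membranes or calcium transport. Among the genes closest to *Tbx5* were *Wnt2* (0.975), a ligand of the venous pole, and *Csf1* (0.957). *Gata5* was closest to *Smtnl2* (0.962), its paralogue *Gata6* (0.959) and *Dok4* (0.956). All of these values include embryos 10_1, 2_2 and 19_4, which stood apart, and the search was not repeated without them. The log2 ratio of *Tbx5* in embryo 2_2 was -3.87, its lowest in this group, so that its matches may rest on that embryo.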

How the data were processed

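The authors trimmed adapters, removed duplicates, used STAR for alignment of paired reads to GRCm39 and featureCounts for counting (Subread 2.0.6). They deposited raw counts per Ensembl gene, with no normalization. The strand setting is not given in the sources used here, so antisense genes that overlap members are uncertain. Names came from GENCODE for 56310 of 56953 genes. Counts were scaled by TMM and tested with edgeR 4.0.16 (R 4.3.3), by the quasi-likelihood test after filterByExpr with the settings of the study (a minimum count of 5, a minimum total of 10, a large group taken as 50 libraries and a proportion of 0.2), with Benjamini-Hochberg adjustment over all genes. Right over left had the embryo as a block, and levels on 1 side had sex as a covariate. All 10 members passed the filter in each comparison. Embryos are named in the labels, which pairs the sides. Residuals of both sides had a median correlation of 0.311 over 21 embryos, above 0.1 in 19. Log2 ratios used a prior count of 2. Copied libraries were looked for, and chi-square divided by genes was at least 7.40 in all 861 pairs.

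Members and gene lists were chosen with earlier results of these data known. Named genes were the members, *Ccdc40*, up to 3 genes with the largest change per list and, for each called member, the 3 protein-coding genes most like it. Some genes that this rule names are not reported here. *Isl1* and *Msi1* were added after their values were seen. Alternatives were DESeq2 1.42.0 with local fit, its size factors, no filter, the newer quasi-likelihood method, males alone, no sex, no block and each embryo left out.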

Additional observations from a re-analysis of the deposited data

Results flagged for a closer look

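In 60 sets of 5 values (10 members, in wild types and in mutants with inverted looping, as CPM of each side and as log2 ratio), 3 held a value whose gap to its neighbour passed Dixon's limit, where chance gives about 1 in 20. *Gata4* in the wild type embryo 10_1 gave both a log2 ratio of right over left of -3.33 and 18.6 CPM on the right, against 98.6 CPM in the median right side of wild types. *Nkx2-5* had 82.3 CPM on the right of embryo 10_3 among mutants with inverted looping, whose median right side had 136 CPM. The 11 mutants with rightward looping were too many for this limit, so embryos 2_2 and 19_4 were not examined by it.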

How the results depend on the processing

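Calls, and the sign of values larger than their SE, were kept in 2344 of 2370 values of members under the alternatives. The count of members called for right over left with inverted looping was 5, and it was 4 to 5 with 1 embryo left out and 0 in males alone, where 3 embryos remain. DESeq2 added *Gata6* (0.32) and *Tbx2* (0.56). Without the embryo block, which rests on the pairing of sides named in the labels, 4 members passed, and *Gata5* had an adjusted p of 0.161 by edgeR with 0.55 on the log2 scale. The block changed no other call of a member. No member was called in any other comparison under the alternatives named in the methods, with 0 to 0 for each embryo left out. Without embryos 10_1, 2_2 and 19_4, chosen after seeing the data, 4 members differed between mutants with inverted and rightward looping. Signs turned in values that were never called. Without embryo 10_1, right over left in wild types was 0.26 for *Gata5* (-0.48 to 0.26 with 1 embryo left out) and 0.26 for *Gata6*, and the difference of mutants with rightward looping from wild types was -0.38 for *Gata5* (-0.38 to 0.36). Without all 3 embryos that difference was -0.34 for *Nkx2-5*, -0.34 for *Gata5* and -0.24 for *Mef2c*, right over left in wild types was 0.26 for *Gata5* and for *Gata6*, and *Gata4* on the left of mutants with rightward looping was 0.25 above wild types. In males alone the difference for *Mef2c* was -0.27. The cause was not tested.

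Over all genes, 468 were called for right over left with inverted looping, 1755 by DESeq2, 942 without the filter, 305 without the block, 53 in males alone and 138 to 446 with 1 embryo left out, the lowest without embryo 32_2. The difference of inverted from rightward looping had 82 calls, 7 to 456 under other settings, 18 to 192 with 1 embryo left out and 414 without the 3 embryos. That of inverted looping from wild types had 135 calls, 3 to 911, 17 to 641 and 86. In wild types, DESeq2 called 20 genes.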
